A study of Homo sapiens with 6 samples.

Results

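ZNF genes, the genes whose symbol is ZNF followed by a number, were followed in DU145 prostate cancer cells through a time course of hepatocyte growth factor (HGF). A probe set, the group of short probes that reports 1 transcript region on the array, was taken if the platform annotation gave it exactly 1 gene symbol of this form. Members were chosen by their own signal, at least 60 in at least 3 of the 6 arrays with every array brought to a mean of 150. This left 209 of the 972 ZNF probe sets, from 155 of 466 ZNF genes. DU145 is an established line from a brain metastasis of prostate cancer, and HGF activates c-MET, a receptor tyrosine kinase. Cells in medium with charcoal-stripped serum received HGF at 25 ng/ml or vehicle only, and were harvested 2, 8 or 24 hours later. Each of the 6 conditions gave total RNA for 1 Affymetrix U133plus2.0 array, so there are 3 HGF arrays and 3 vehicle arrays and no replicate at any time. Every ratio between 2 arrays is therefore given without an error, and the pairs of vehicle arrays show how far arrays differed without HGF, time in culture included.

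ZNF genes encode proteins with zinc fingers, short folds in which cysteines and histidines hold a zinc ion, and form the largest family of human transcription factors. Many carry a KRAB domain, which recruits the co-repressor TRIM28 and heterochromatin proteins to silence transposable elements and genes, and many of these lie in clusters on chromosome 19 that arose by duplication. Other genes with a ZNF symbol encode proteins of a different kind that bind RNA, ribosomes, microtubules or SUMO.

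The arrays differed in overall signal and in control probe sets. Deposited means per array lay between 149.1 and 205.4 before scaling. ACTB control probe sets at the 3' end over those at the 5' end gave, in order of vehicle and HGF, 1.17 and 1.13 at 2 hours, 1.36 and 1.31 at 8 hours, then 1.63 and 1.71 at 24 hours, while the same ratio for GAPDH stayed between 0.925 and 1.01. The DapX spike, an RNA added during labelling, read 701.1 in the vehicle array of 8 hours and 1152 to 2322 in the other arrays. Epithelial markers KRT8, KRT18, EPCAM and CDH1 all met the level rule in 4 of 4 genes. Of the prostate luminal markers, KLK2 and TMPRSS2 reached at most 18.7 and 1 probe set of KLK3 reached 110.1. Leukocyte markers had 0 probe sets at the level rule, with a highest value of 21.4, and of the fibroblast markers only COL1A1 had 1, with a highest value of 97.3. In RNA of whole cultures, fewer cells that express a gene and less RNA per cell cannot be told apart.

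ZNF probe sets gave dim signals. Over the 6 arrays the mean signal of a member had a median of 94.5 and a range of 47.8 to 1624, against a median of 191 for the 13211 probe sets of any gene that met the same rule. Probe sets bind with different strength, so these signals describe the probe sets and do not rank the mRNAs. ZNF probe sets met the rule in 21.5% of cases, against 32.2% of all 41091 probe sets with 1 symbol. Among the other 763, 693 reached 60 in no array, 43 in 1 array and 27 in 2 arrays. For 259 ZNF genes no probe set reached 60 anywhere. Of the 209 members, 108 reached 60 in all 6 arrays, 31 in 5, 29 in 4 and 41 in 3. Of these 41, 28 did so in the same 3 arrays, vehicle and HGF at 2 hours and vehicle at 8 hours, so that these members had to be lower in the other arrays. Just inside the rule were ZNF829, which reached 60 in its marginal array, and ZNF697, with 60.05, and just outside were ZNF559 with 59.92 and ZNF700 with 59.77. In RefSeq 152 of the 155 genes are protein coding and 3, ZNF252P, ZNF271P and ZNF542P, are pseudogenes.

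ZNF mRNAs had their lowest signals in the HGF array of 8 hours. Median member signals were 110 and 106 at 2 hours (vehicle, HGF), 119 and 83.4 at 8 hours, and 89.1 and 86.9 at 24 hours. To find the lowest array, signals under 30 were set to 30, and ties went to the earlier array. HGF at 8 hours was then the lowest of the 6 arrays for 109 of 209 members (52.2%). Among all probe sets at the level rule the share was 35.2%. Vehicle at 8 hours was the highest for 87 members (41.6%), against 29.2% of all. Before ratios were taken, signals under 30 were raised to 30, so a ratio with 1 side under 30 is a lower bound of the difference. The median log2 ratio of HGF over vehicle at 8 hours was -0.62 over the members and -0.14 over all 13211 probe sets. At least 2-fold lower were 75 members of 54 genes, 35.9% of the members, where 18.4% of all probe sets were. At least 2-fold higher were 4 members, 1.91%, where 4.36% of all were. The member rule uses the same 6 arrays, so these shares are a description. Among the 108 members that reached 60 in all 6 arrays, 26 (24.1%) were 2-fold lower, against 13.9% of all probe sets held to that stricter rule.

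The size of this difference depended on the vehicle array it was measured against. HGF at 8 hours against vehicle at 2 hours gave a median of -0.58 (all -0.14), with 69 members 2-fold lower (33%, all 13.7%) and 4 higher (all 3.4%). Against vehicle at 24 hours the median was -0.17 (all 0.03), with 16 members 2-fold lower (7.66%, all 2.91%) and 3 higher (all 2.38%). The 3 comparisons share the HGF array. The scaling also mattered. With ratios centred on the median of all probe sets, 70 members were 2-fold lower and 8 higher than vehicle at 8 hours, with a median of -0.49, where 14.6% of all probe sets were 2-fold lower. With quantile normalization 58 were lower and 11 higher, with a median of -0.34, where 12.3% of all probe sets were 2-fold lower.

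A stricter reading asks which members left the range of all 3 vehicle arrays. At 8 hours, 14 probe sets of 13 genes were at least 2-fold lower with HGF than in every vehicle array, 6.7% of the members against 2.35% of all probe sets. No member was 2-fold higher than every vehicle array at 8 hours, where 1.05% of all probe sets were. At 2 hours 0 members were higher (all 0.424%) and 0 lower (all 0.00757%), and at 24 hours 0 were higher (all 0.689%) and 0 lower (all 0.492%). A comparison that left out the vehicle array of 8 hours was added after seeing the data. In it 14 members were 2-fold lower than both other vehicle arrays, where 2.48% of all probe sets were. Members below all 3 vehicle arrays are below any of them, so this count could not fall and is no check on that array. Of the members at 60 in all 6 arrays, 5 were 2-fold lower than every vehicle array (4.63%, all 1.15%).

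ZNF12, a KRAB zinc finger repressor, lay far below the vehicle arrays at 8 hours. Its probe set 226015_at read 198.8, 219.5 and 128.3 with vehicle at 2, 8 and 24 hours, and 157, 43.6 and 107.4 with HGF. The HGF value at 8 hours was 2.94-fold below the lowest vehicle value, and the other HGF values were within 2-fold of their own vehicle array. A further probe set of ZNF12, 1554021_a_at, read 226.9, 272.9 and 135.5 with vehicle and 227.5, 64.2 and 135.8 with HGF. All 4 member probe sets of ZNF12 were at least 2-fold lower than vehicle at 8 hours, with log2 ratios between -2.33 and -1.67.

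ZNF302 read 183.8, 231.6 and 113.2 with vehicle and 119.5, 41.6 and 96.6 with HGF, at 2, 8 and 24 hours. Its log2 ratio at 8 hours was -2.48, and its lowest vehicle value was 2.72-fold above the HGF value. ZNF644, a partner of histone methyltransferases that silence genes, read 232.3, 301.4 and 194.2 with vehicle and 226.3, 71.8 and 205.5 with HGF. Its HGF values of 2 and 24 hours lay within the range of the vehicle arrays, and that of 8 hours lay 2.70-fold below it.

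ZNF146, a protein made almost wholly of zinc fingers, was reported by a pair of probe sets. The probe set 1554433_a_at read 337.7, 451.7 and 204.9 with vehicle and 279.4, 79.8 and 188.1 with HGF, and its log2 ratio at 8 hours of -2.50 was the lowest with signals under 30 raised to 30. With no floor ZNF268, at 117.8 with vehicle and 20.1 with HGF, came to -2.55. The brighter probe set 200050_at read 1208, 1480 and 806.1 with vehicle and 1232, 668.7 and 1186 with HGF, a log2 ratio of -1.15 at 8 hours, and its HGF value of 8 hours was less than 2-fold below vehicle at 24 hours.

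The other members of this group were also within 2-fold of their vehicle array at 2 and 24 hours, apart from ZNF207 at 24 hours, and low at 8 hours. Their smallest fold below a vehicle array at 8 hours was 2.21 for ZNF397, 2.11 for ZNF227, 2.09 for ZNF83, 2.07 for ZNF451 and for ZNF638, 2.04 for ZNF292 and 2.03 for ZNF266. For ZNF207 probe set 1556035_s_at and ZNF322 probe set 219376_at the HGF signal at 8 hours was under 30, so they were at least 2.39-fold and at least 2.10-fold lower. With no floor the log2 ratio of ZNF207 to its lowest vehicle value was -1.61, beyond the -1.56 of ZNF12 probe set 226015_at. Under quantile normalization 10 of the 14 remained 2-fold below every vehicle array, and ZNF292, ZNF451, ZNF266 and ZNF83 came to log2 ratios of -0.96, -0.97, -0.998 and -0.95 against the nearest vehicle array, just short of 2-fold.

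Promoters of 3 genes are shown to set a pair of the low genes beside the gene that was highest at 8 hours. They cover 250 bases before and 50 after the transcription start in RefSeq (GRCh38.p14), read 5′ to 3′ on the strand of the gene, with capitals for matches to the motifs listed next. ZNF12 lies at chr7:6706898-6707197 on the minus strand, ZNF644 at chr1:91021986-91022285 on the minus strand and ZNF593 at chr1:26169658-26169957 on the plus strand.
ZNF12: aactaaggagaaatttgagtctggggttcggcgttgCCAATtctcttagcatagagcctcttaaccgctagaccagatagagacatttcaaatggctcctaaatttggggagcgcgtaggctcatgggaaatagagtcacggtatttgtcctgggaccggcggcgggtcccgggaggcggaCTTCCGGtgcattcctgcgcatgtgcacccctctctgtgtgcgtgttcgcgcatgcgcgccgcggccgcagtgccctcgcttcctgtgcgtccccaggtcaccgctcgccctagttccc
ZNF644: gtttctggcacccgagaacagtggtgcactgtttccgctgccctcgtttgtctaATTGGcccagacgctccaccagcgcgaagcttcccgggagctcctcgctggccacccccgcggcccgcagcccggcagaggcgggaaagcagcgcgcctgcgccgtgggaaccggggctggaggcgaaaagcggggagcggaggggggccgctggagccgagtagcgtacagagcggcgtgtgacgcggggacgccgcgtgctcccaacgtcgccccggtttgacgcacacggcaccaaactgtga
ZNF593: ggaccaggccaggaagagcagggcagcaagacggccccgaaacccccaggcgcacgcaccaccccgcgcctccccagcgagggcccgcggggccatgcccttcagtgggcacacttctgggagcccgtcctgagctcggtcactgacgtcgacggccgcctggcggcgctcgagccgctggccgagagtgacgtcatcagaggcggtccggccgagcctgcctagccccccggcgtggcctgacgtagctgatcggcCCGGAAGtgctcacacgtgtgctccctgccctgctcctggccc

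Motifs were searched on both strands as exact letters, the GC box GGGCGG, the TATA box TATAAA, the CCAAT box CCAAT, an ETS core CCGGAAG and a YY1 motif AAGATGGC, none of which contains another. A promoter was found for 133 of the 155 genes. The ETS core stood in 42.1% of ZNF promoters, in 22.2% of the promoters of all genes at the level rule and in 10.7% of all 27305 promoters. ZNF promoters held the GC box in 69.9% of cases (genes at the level rule 73.2%, all promoters 44.6%), the TATA box in 2.26% (4.91% and 12%), the CCAAT box in 42.1% (37.7% and 35.7%) and the YY1 motif in 6.02% (6.51% and 3.03%). Among ZNF genes the ETS core was in 40.4% of the 47 promoters of genes with a probe set 2-fold lower at 8 hours and in 43% of the other 86. Of the promoters shown, ZNF12 and ZNF593 have 1 ETS core each and ZNF644 has 0, and ZNF12 and ZNF644 have 1 CCAAT box each and ZNF593 has 0. A match is a run of letters and no evidence of a bound factor.

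Genes with a known function, a list of 37 written from general knowledge, had 27 members with 47 probe sets. At 8 hours 20 of these probe sets, from 10 genes, were 2-fold lower with HGF than vehicle (all probe sets 18.4%) and 1 was higher (all 4.36%), with a median log2 ratio of -0.67. At 2 hours 1 was lower (all 0.0908%) and 0 were higher (all 0.78%), and at 24 hours 1 was lower (all 1.03%) and 1 higher (all 1.96%).

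Among the regulators of transcription, all 3 probe sets of ZNF148 and of ZNF24 were lower at 8 hours. ZNF148 binds GC-rich promoter elements, and its probe set 203318_s_at read 144.5 in the vehicle array and 40.4 in the HGF array at 8 hours. ZNF24, known as a repressor of VEGF, read 566.1 in the vehicle array and 172.6 in the HGF array in probe set 203247_s_at, against 591.5 and 610.9 at 2 hours and 285.8 and 347.3 at 24 hours. Other regulators differed less. ZNF217, an oncogene amplified in breast cancer, read 394.9 in the vehicle array and 266.5 in the HGF array at 8 hours, a log2 ratio of -0.57. ZNF281, which has been tied to epithelial-mesenchymal transition, had log2 ratios between -0.67 and -0.17 in 3 probe sets. ZNF143, an activator of many housekeeping promoters, had -0.34, and ZNF202, a repressor of lipid metabolism genes, 0.00.

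Genes tied to silencing or to SUMO had no common ratio. ZNF638, a partner of the HUSH complex in silencing retroviral DNA, had 3 probe sets with log2 ratios of -1.84, -1.68 and -1.67 at 8 hours. ZNF451, a SUMO ligase, read 463 in the vehicle array and 125.3 in the HGF array at 8 hours in probe set 1556060_a_at, a log2 ratio of -1.89. ZNF91, which silences SVA retrotransposons, read 95.7 and 17.1, the latter under the floor. ZNF274, which brings the histone methyltransferase SETDB1 to ZNF genes themselves, read 222.1 and 215.5, a log2 ratio of -0.04.

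Genes linked to ribosomes or RNA also had no common ratio. ZNF593, a factor for export of the large ribosomal subunit, read 566.7, 472 and 855.4 with vehicle at 2, 8 and 24 hours and 844.7, 1256 and 813.1 with HGF. The HGF value of 8 hours was the highest of the 6, and its log2 ratio to vehicle at 8 hours was 1.41, the highest of all members, but it was 0.55 to vehicle at 24 hours. ZNF622, which acts in maturation of the large subunit, read 314.1 in the vehicle array and 474.4 in the HGF array at 8 hours, a log2 ratio of 0.59. ZNF598, a ubiquitin ligase for collided ribosomes, read 83.7 and 130.9, a log2 ratio of 0.65. ZNF277, whose product binds a ribosomal protein, read lower with HGF at 8 hours, with log2 ratios of -1.36 and -0.72 in a pair of probe sets. ZNF346, which binds double-stranded RNA, had log2 ratios of -0.20 and 0.10 in a pair of probe sets, and ZNF326, part of a complex that couples elongation to splicing, had -0.89. The other members at least 2-fold higher at 8 hours than vehicle were ZNF511 (258.2 to 625.5), ZNF574 (60.7 to 134.2) and ZNF747 probe set 228856_at (58.1 to 123.3).

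Short ZNF genes and long ZNF genes differed at 8 hours. Averaged per gene, 50 of the 155 genes were 2-fold lower and 3 higher, with a median log2 ratio of -0.58. Among the 52 genes that span at most 18.2 kb in RefSeq the median was 0.05 and 10 were 2-fold lower (19.2%). Among the 51 genes of middle span it was -0.70 with 19 lower (37.3%), and among the 52 that span over 31.9 kb it was -0.70 with 21 lower (40.4%). Across the 155 genes Spearman's rho of span and ratio came to -0.34 for 8 hours, against -0.13 for 2 hours and 0.02 for 24 hours. The genes share the same arrays and neighbouring ones share sequence, so rho is a description. The relation was not particular to ZNF genes. Over 8273 genes at the level rule rho was -0.40 at 8 hours, and 5.6%, 12.4% and 23.8% of the genes in the same 3 classes of span were 2-fold lower. In every class the share was larger among ZNF genes. ZNF593 spans 0.966 kb, ZNF511 4.25 kb and ZNF747 4.49 kb, whereas ZNF292, ZNF644 and ZNF638 span 110.4, 106.7 and 103.3 kb. ZNF302, with a log2 ratio of -2.48, spans 10.4 kb and stood apart from this order. So did long genes that were not 2-fold lower. ZNF407 spans 467.8 kb and had -0.66, and ZNF609, with 226.5 kb, had 0.29. ZNF362 and ZNF503, with 173.2 and 122.2 kb, had 0.40 and 0.44. Base composition of the promoter had a weaker relation, with a rho of 0.12 over 133 ZNF genes.

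The share of low members was above that of all probe sets in each range of signal at 8 hours. Among members with a mean signal under 100, 37.3% of 110 were 2-fold lower at 8 hours (all probe sets of that range 24.5%). Between 100 and 200 it was 30% of 60 (all 22.6%), and at 200 or more it was 41% of 39 (all 13.1%), with a median log2 ratio of -0.57 where all probe sets of that range had -0.01. Against vehicle at 24 hours the shares were 4.55% (all 5.39%), 13.3% (all 3.42%) and 7.69% (all 1.38%), so the share among the dimmest members was not above that of all probe sets there. Bright members that were 2-fold lower included ZNF664 (1565 with vehicle and 524 with HGF at 8 hours), ZNF121 (779 and 293.6) and ZNF639 probe set 222623_s_at (612.3 and 258.7). ZNF706 was among the brightest and read 778.6 and 891.1.

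**Figure D1:**
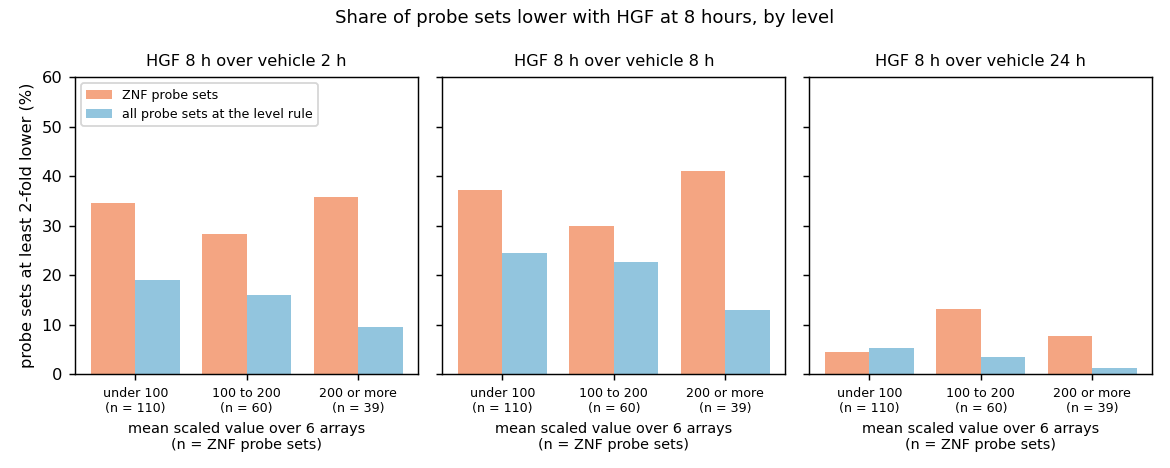
Share of probe sets at least 2-fold lower with HGF at 8 hours than in the vehicle array of 2, 8 or 24 hours (3 panels), by mean scaled signal over 6 arrays. Orange bars are ZNF probe sets, with their number under each pair, and blue bars are all probe sets at the level rule. In the brightest class the orange bar stands at 41% and the blue bar at 13.1% against vehicle at 8 hours.

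Probe sets of 1 gene usually pointed the same way. Of 43 genes with several member probe sets (97 in all), 31 had every probe set below 0 at 8 hours, 23 had at least 1 that was 2-fold lower and 13 had all of them 2-fold lower. At 8 hours 55.7% of all probe sets at the level rule were below 0 and 18.4% were 2-fold lower. Other genes with several probe sets were not counted in this way. None of the 43 genes had probe sets past 2-fold in opposite directions. The widest ranges were those of ZNF655 and ZNF207. ZNF655 read 188.6 in the vehicle array and 288.5 in the HGF array at 8 hours in probe set 223302_s_at, and 149.4 and 50.1 in probe set 225945_at, log2 ratios of 0.61 and -1.57.

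ZNF207, also called BuGZ, binds microtubules and helps chromosomes align in mitosis, and it had 5 member probe sets. The bright ones, 200828_s_at and 200829_x_at, read 1776 and 1152 with vehicle at 8 hours and 1834 and 1435 with HGF, log2 ratios of 0.05 and 0.32. The 3 dim ones, 1556035_s_at, 228157_at and 231848_x_at, read 104, 98.8 and 78.3 with vehicle and 23.4, 22.6 and 25.6 with HGF. At 24 hours the dim ones were again lower with HGF, at 40.2, 48 and 22.3 against 84.3, 89.1 and 53.3 with vehicle, while the bright ones read 1190 and 890.2 against 1358 and 948.7. Which transcripts each probe set detects was not analysed here.

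HGF and vehicle differed little at 2 hours. The median log2 ratio was -0.06 (all -0.04), 0 members were 2-fold higher (all 0.78%) and 1 was lower (all 0.0908%). That member was ZNF580, which read 108.8, 99.1 and 72.7 with vehicle at 2, 8 and 24 hours and 48.5, 145.7 and 61.7 with HGF, low at 2 hours and high at 8 hours. The highest ratio at 2 hours was that of ZNF468, 77.3 with vehicle and 140.4 with HGF, a log2 ratio of 0.86. Against vehicle at 8 hours, HGF at 2 hours had 0 members higher (all 0.863%) and 1 lower (all 0.719%), again ZNF580. Against vehicle at 24 hours, 14 were higher (all 3.5%) and 0 lower (all 0.273%).

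At 24 hours the HGF and vehicle arrays were again close, with a median of -0.02 (all 0.07), 1 member 2-fold higher (all 1.96%) and 1 lower (all 1.03%). The lower one was ZNF207 probe set 1556035_s_at. The higher one was ZNF277 in probe set 1555193_a_at. It read 106.3, 104 and 32.9 with vehicle and 74.8, 40.5 and 86.3 with HGF, so the vehicle value of 24 hours stood below the other vehicle values and the HGF value lay inside the vehicle range. Its other probe set, 218645_at, read 161.4 in the vehicle array and 248.5 in the HGF array at 24 hours, a log2 ratio of 0.62. ZNF277, ZNF207 and ZNF518A, with ZNF250, which is no member, are ZNF genes that the study chose on these same arrays, so their differences at 24 hours are no independent evidence. ZNF518A probe sets had log2 ratios of 0.17 and -0.53 at 24 hours, neither of them 2-fold. The study lists this gene, as ZNF518, among its strongest decreases at 24 hours, without naming a probe set. ZNF185, an actin-binding LIM protein with no zinc fingers of the DNA-binding kind, read 201.2 in the vehicle array and 364.7 in the HGF array at 24 hours. Its other 4 values lay between 182.8 and 213.9.

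The 24 hour arrays gave lower ZNF signals than the vehicle arrays of 2 and 8 hours. Vehicle at 24 hours against vehicle at 2 hours had a median log2 ratio of -0.39 (all -0.19), with 0 members 2-fold higher (all 0.22%) and 14 lower (all 2.41%). Against vehicle at 8 hours it was -0.41 (all -0.21), with 0 higher (all 0.401%) and 29 lower (all 5.82%). Vehicle at 8 hours against 2 hours had 0.07 (all 0.02), with 1 higher (all 0.431%), the pseudogene ZNF542P, and 0 lower (all 0.371%). HGF at 24 hours against vehicle at 2 hours had -0.33 (all -0.11), with 0 higher (all 1.79%) and 25 lower (all 3.72%), and against vehicle at 8 hours -0.45 (all -0.13), with 0 higher (all 1.7%) and 34 lower (all 5.32%). From 2 to 24 hours 133 members (63.6%) were lower both with vehicle and with HGF, against 46.9% of all probe sets. Between HGF arrays, 24 hours against 2 hours had a median of -0.29 (all -0.07), but 24 hours against 8 hours had 0.21 (all 0.01). The 28 members that met the level rule only in the arrays of 2 hours and vehicle at 8 hours had to be lower at 24 hours, so these values are a description. Over the 108 members at 60 in all 6 arrays the medians were smaller, -0.21 for vehicle at 24 over 2 hours (all probe sets so chosen -0.16), -0.28 for vehicle at 24 over 8 hours (all -0.16) and -0.15 for HGF at 24 over 2 hours (all -0.05). For HGF at 24 over 8 hours the median was 0.10 (all -0.02). Among members with a mean signal of 100 to 200, vehicle at 24 over 2 hours had -0.24 (all -0.22), with 0 members 2-fold lower (all 2.71%). The ACTB 3' to 5' ratio was highest at 24 hours in both arrays, and its part in this was not tested.

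No member carried a shared effect of HGF over the 3 times that passed a test. With limma on log2 signals and the time point as a block, with arrays from different times serving as the replicates, 0 of 209 members had a Benjamini-Hochberg adjusted p under 0.05, and 10 had an unadjusted p under 0.05. In the same limma fit 0 of all 13211 probe sets had an adjusted p under 0.05, and 552 had an unadjusted p under 0.05. The smallest adjusted p of a member was 0.906 with limma. The labels do not say whether the arrays come from separate cultures, so the spread in this fit may be technical. The members with the smallest unadjusted p were ZNF207 probe sets 231848_x_at and 1556035_s_at, ZNF618, ZNF611, ZNF302 and ZNF84, all lower with HGF, with fitted log2 differences of -0.80 (SE 0.29), -0.91 (SE 0.36), -0.70 (SE 0.25), -0.64 (SE 0.24), -1.11 (SE 0.42) and -0.85 (SE 0.33).

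Some members had HGF and vehicle values that did not overlap. All 3 HGF values were lower than all 3 vehicle values for 8 members of 7 genes (3.83%, all 3.66%), and higher for 2 members (0.957%, all 5.72%). ZNF618 read 88.6, 77.7 and 74.5 with vehicle and 47.6, 62.7 and 40.4 with HGF, and ZNF322 probe set 227980_at read 83, 106.6 and 84.3 with vehicle and 69.2, 53.1 and 68.4 with HGF. Those were the widest gaps, 0.25 and 0.26 on the log2 scale. The other lower ones were ZNF239, ZNF627, ZNF462, ZNF419, ZNF22 and ZNF322 probe set 219376_at, and the higher ones were ZNF330, which encodes a nucleolar protein, and ZNF830.

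Related families were mixed at 8 hours. By the same level rule 51 probe sets of 39 ZBTB, ZFP, ZSCAN and ZKSCAN genes had a median log2 ratio of -0.90 at 8 hours, with 19 lower (37.3%, all probe sets 18.4%) and 1 higher (all 4.36%), and of -0.07 and 0.02 at 2 and 24 hours. ZBTB genes, which pair zinc fingers with a BTB domain for protein contacts, had 14 of 29 probe sets lower, and ZKSCAN genes 3 of 5. ZFP genes had 2 of 11 lower (18.2%) and ZSCAN genes 0 of 6, with median log2 ratios of -0.63 and -0.41. A difference between these families and ZNF genes was not tested.

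Partners of KRAB zinc fingers were mixed. All 16 listed genes met the level rule, with 28 probe sets, a median log2 ratio of -0.51 at 8 hours, 8 lower (all probe sets 18.4%) and 0 higher (all 4.36%). The lower ones were probe sets of ATF7IP, SMARCAD1, CBX3, CBX5, TASOR and MPHOSPH8. Other probe sets of ATF7IP, CBX3, CBX5 and MPHOSPH8 fell short of 2-fold, with log2 ratios of -0.08 and -0.12 for CBX5. TASOR and MPHOSPH8 belong to the HUSH silencing complex, and MPHOSPH8 was lower in probe set 221771_s_at only. PPHLN1, also of that complex, read 776.7 in the vehicle array and 863.4 in the HGF array at 8 hours, a log2 ratio of 0.15. TASOR probe set 209284_s_at read 354.5 in the vehicle array and 106.7 in the HGF array at 8 hours. TRIM28, the co-repressor that KRAB domains bind, read 877 in the vehicle array and 1455 in the HGF array at 8 hours, a log2 ratio of 0.73, and the histone deacetylase HDAC1 read 932.8 and 1518. At 24 hours MORC3 read 66.2 with vehicle and 140.4 with HGF, a log2 ratio of 1.08, and MPHOSPH8 probe set 221771_s_at read 67.8 and 19.1, the latter under the floor.

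ZNF genes were also split by their neighbours. In RefSeq, 288 ZNF genes of the array lie next to another ZNF gene and 27.1% of them had a member, whereas 45.1% of the 164 that do not lie next to one had a member. At 8 hours 37 of 98 member probe sets of clustered genes were 2-fold lower (37.8%, median -0.73) and 35 of 107 of the others (32.7%, median -0.52), where 18.4% of all probe sets were. Near-identical fingers can bind the same probes, and 22 members have names ending in _x_at and 43 in _s_at, names given to probe sets that other transcripts may share. Without them 49 of 144 members (34%) were 2-fold lower at 8 hours, beside the 18.4% of all probe sets with these names kept in.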

How the data were processed

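Values were taken for DU145 cells from 6 arrays, 1 for each of vehicle and HGF at 2, 8 and 24 hours, grouped by the labels. The deposited values are linear intensities of 54675 probe sets. MAS5 is named in the processing notes of the submitters, and its version is not given in the sources used here. Their methods add quantile normalization, a mean of 150 and a floor of 30, which the deposited intensities do not show. Here the mean and the floor were added, with quantile normalization as an alternative. No count depth exists for arrays, and their number limits the precision.

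Of the probe sets, 41091 have 1 gene symbol in the platform annotation, 1801 have several and were not named, and 11777 are unnamed here. No ZNF symbol was changed by RefSeq. Symbols ZNF, digits and an optional letter with at least 60 in at least 3 arrays gave the members. Log2 ratios were taken between arrays, and 13211 probe sets of any gene at the same rule gave the background. Within a time point no test was possible. The shared HGF effect was tested with limma (lmFit, eBayes, time as a block, Benjamini-Hochberg, threshold 0.05) over all 13211. These steps were tested on simulated data. Promoters and gene spans came from RefSeq (GRCh38.p14), and no protein sequences were used here.

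The members, the lists and the tests were chosen with earlier results of these data known. Named were members 2-fold from every vehicle array (up to 8 per time and direction, by smallest ratio; here all 14 are named), up to 6 non-overlapping members per direction, the 6 with the smallest limma p, the 6 with the highest mean, those at the edge of the level rule, genes with known functions, the study's own ZNF genes, genes whose probe sets disagree, and partners of KRAB zinc fingers. Members named for their level, gap, span or ratio in a comparison, ZNF542P, ZNF185, ZNF468, ZNF511, ZNF574, ZNF747, ZNF121, ZNF268, ZNF639 and ZNF22 were chosen after their values were seen. Alternatives were no floor, quantile normalization, centred ratios, a level of 100, all 6 arrays, no _s_at or _x_at probe sets, 1 value per gene, a 1.5-fold threshold and, in the limma fit, leaving out the block, the level rule or each time, or adding a variance trend. The fit used limma 3.58.1 in R 4.3.3, and other steps Python 3.11.15 with pandas 2.3.3, numpy 2.4.6 and matplotlib 3.10.9.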

Additional observations from a re-analysis of the deposited data

Results flagged for a closer look

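From 2 to 8 hours the median log2 ratio of the ZNF members was 0.0726 between the vehicle arrays and -0.626 between the HGF arrays. From 8 to 24 hours it was -0.4103 between the vehicle arrays and 0.2087 between the HGF arrays. The medians of all probe sets at the level rule were 0.02 and -0.15 in the first interval and -0.21 and 0.01 in the second. The signs were opposite there too, but 0.02 and 0.01 were small. Among probe sets that reached the level in every array, the medians of all from 8 to 24 hours were -0.16 (vehicle) and -0.02 (HGF). Those of the members so chosen were -0.28 and 0.10. Under that stricter rule the opposite signs of the second interval were seen in the members and not in all probe sets. In both intervals the member medians of vehicle and HGF went opposite ways, and with 1 array per condition the difference was not tested. The vehicle array and the HGF array of 8 hours each enter both intervals. The DapX spike was lowest in the vehicle array, 701.1, and read 1630 in the HGF array. The part of either array in the difference was not tested.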

How the results depend on the processing

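The median ratio at 8 hours stayed below 0, and more members were lower than higher, under each alternative run for them. The median ratio to vehicle at 8 hours, -0.62, became -0.34 with quantile normalization, -0.49 with centred ratios and -0.34 for members at 60 in all 6 arrays. The 75 members lower at 8 hours became 41 of 110 at a level of 100, 26 of 108 with 60 in all 6 arrays (all probe sets so chosen 13.9%) and 49 of 144 without _s_at and _x_at probe sets, fewer members being tested in each. The 4 higher ones became 11 with quantile normalization, 8 with centred ratios, 2 at a level of 100 and 17 at 1.5-fold. Of the 14 below every vehicle array, 5 were left with 60 in all 6 arrays (all probe sets so chosen 1.15%), 8 with 1 value per gene, and 62 were counted at 1.5-fold. Above every vehicle array at 8 hours, 0 became 1 with quantile normalization and 9 at 1.5-fold. No share of all probe sets was counted at 1.5-fold or at a level of 100. None was counted below every vehicle array with 1 value per gene. Those counts describe the members only and show no difference from all probe sets.

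At 2 hours the 1 lower member was lost (0) at a level of 100, with 60 in all 6 arrays and without _s_at and _x_at probe sets, and 9 were lower and 4 higher at 1.5-fold, with 2 higher and 1 lower than every vehicle array. At 24 hours the 1 lower member became 4 with no floor, 12 at 1.5-fold and 0 at a level of 100, with 60 in all 6 arrays, without _s_at and _x_at probe sets and with 1 value per gene. The 1 higher member became 0 at a level of 100 and with 60 in all 6 arrays and 11 at 1.5-fold. Below every vehicle array at 24 hours, 0 became 3 with no floor and 9 at 1.5-fold, and above it 1 at 1.5-fold. The counts at 1.5-fold have no share of all probe sets beside them at either time, so they describe the members only.

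With limma 0 members were called under every setting, including leaving out a time (0 to 0), and 10 had an unadjusted p under 0.05, with 6 to 45 over the alternatives. The 45 came with both arrays of 24 hours left out, where 1163 of all 13211 probe sets had an unadjusted limma p under 0.05. With both arrays of 8 hours left out, 83 of all probe sets were called, and the smallest adjusted limma p of a member was 0.061. No paired analysis was possible because each group has 1 array, beyond the time block already in limma. Single arrays and dim signals limit every ratio, and signals under 30 give bounds only.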
